A study of Mus musculus with 9 samples.

Results

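The genes that license, copy and feed DNA replication were followed in T15 cells, a murine Smarcb1-negative peripheral T-cell lymphoma line. A fixed list of 50 genes was taken from the 35288 gene identifiers of the deposited count table, matched by Ensembl identifier and symbol. All 50 members were among the 13697 genes with enough counts to be tested. The rule names genes by function and uses no measured value, but the list was drawn up with earlier results of these data known. The list holds the subunits of the MCM helicase and of the origin recognition complex (ORC), the licensing factors with their inhibitor Geminin, the factors that activate the helicase, the replicative polymerases with primase, the clamp loader (RFC), the clamp and Okazaki fragment enzymes, the single-strand binding protein RPA, 5 enzymes of deoxynucleotide supply and 4 regulators of the G1/S transition.

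The 9 RNA-seq libraries fall into 3 groups of 3, which are control, SAHA and Smarcb1-RE. SAHA, also named vorinostat, blocks histone deacetylases and was given 2 times at 1 µM over 72 h. Smarcb1-RE cells were transduced with a lentiviral pInd20 plasmid carrying Smarcb1, selected with G418 and induced with doxycycline at 0.5 µg/µl for 72 h. Smarcb1 is a core subunit of the SWI/SNF chromatin remodeling complex. The study calls the control cells untreated, whereas the labels describe a vehicle for SAHA and a control plasmid for Smarcb1-RE. Which of these was used for the control libraries is not given in the labels. Transduction, selection and doxycycline therefore cannot be told apart from Smarcb1 itself, and vehicle cannot be told apart from SAHA. Several stable Smarcb1-RE clones were established in the study, and the labels do not say whether the libraries came from 1 of them. Both treatments are compared with the same 3 controls, so the 2 comparisons are not independent and their values are given side by side. In bulk RNA, fewer cells that express a gene and less RNA per cell cannot be told apart. The paper reports that SAHA at the dose used here strongly induced apoptosis, with most cells dead. For Smarcb1-RE cells it reports reduced growth, while viability and the cell cycle were unaffected. The part of cell death and of reduced growth in the results was not tested.

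In eukaryotes, ORC with Cdc6 and Cdt1 loads the MCM ring on origins in G1, and Geminin blocks Cdt1 once origins have fired. Cdc45 and the GINS complex join the ring to form the active helicase, polymerase alpha with primase lays primers, and polymerases epsilon and delta extend them on the clamp Pcna. Many of these genes are transcribed at the G1/S transition from promoters bound by E2F factors, and proliferating T cells depend on the same genes for clonal expansion.

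Library totals were 24564919 to 24941494 counts for control, 23403494 to 24189992 for SAHA and 20900477 to 21911177 for Smarcb1-RE. Control libraries held 2, 5 and 8 counts of Smarcb1 itself, SAHA libraries 7, 13 and 3, and Smarcb1-RE libraries 151, 147 and 142. Control replicate 1 stood apart, since its counts differed from those of the other 2 controls by 13.4 and 15 times the sampling noise, on the mean chi-square per gene, against 2.08 to 4.69 for the 7 other replicate pairs. Results that rest on it are given without it. The share of counts on 13 mitochondrial genes was 3.02% to 3.53% in control, 3.37% to 3.76% in SAHA and 4.79% to 5.08% in Smarcb1-RE libraries, and its part in the results was not tested. Of 15 T-cell markers, 11 had over 10 counts in every library, with a summed level of 4207 to 4622 CPM (counts scaled to a common library size), whereas Cd4, Cd2, Cd5 and Thy1 were at or near 0. Of 3 fibroblast markers, Pdgfra carried a summed level of 66.4 to 68.5 CPM in Smarcb1-RE against 6.29 to 8.84 CPM in control libraries, with Col1a1 and Col1a2 below 1 CPM. The 6 B-cell markers summed to 7.77 to 9.03 CPM in Smarcb1-RE against 1.03 to 1.18 CPM in control libraries, and the myeloid, erythroid and epithelial markers summed to at most 3.36 CPM in any library. The part of these markers in the results was not tested.

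Promoters are shown first, because many members share a short E2F-type word close to the start. RefSeq windows of 250 bases before to 50 bases after an annotated start (GRCm38.p6) were available for 41 of the 50 members. The words TTTCCCGC, TTTCGCGC, TTTGCCGC and TTTGGCGC were searched on both strands, and hits may overlap where one word meets the reverse of another. At least 1 word was present in 16 of the 41 members, or 39.0%, against 2.60% of 27025 genes with such windows and 4.75% of the 9785 of them that were tested here. The shorter word CCAAT was present in 24 members, or 58.5%, against 43.9% of the tested genes. The stretches below lie before the start of the gene in both RefSeq and GENCODE, are written 5′ to 3′ on the strand of the gene, and carry the words in capitals. Mcm5 and Mcm6 are shown because they hold words, and Mcm5 fell after SAHA while Mcm6 did not pass. Pola1 is shown as a polymerase gene with a word. Fen1 and Tk1 are shown because they hold none of these words and had the largest fall in Smarcb1-RE and after SAHA, respectively. The Tk1 stretch leaves out the bases next to the RefSeq start. Fen1 has a further RefSeq start inside the gene, whose window is not shown and held no word either. The Fen1 stretch (chr19:10204394-10204563, minus strand) lies in an intron of Tmem258 and the Tk1 stretch (chr11:117826093-117826262, minus strand) in an intron of Afmid, both on the other strand. The others are chr8:75109339-75109508 on the plus strand for Mcm5, chr1:128359706-128359875 on the minus strand for Mcm6 and chrX:93632156-93632325 on the minus strand for Pola1.
Mcm5: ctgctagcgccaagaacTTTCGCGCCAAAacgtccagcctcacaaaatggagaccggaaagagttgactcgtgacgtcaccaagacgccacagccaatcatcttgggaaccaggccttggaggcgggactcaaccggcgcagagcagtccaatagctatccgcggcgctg
Mcm6: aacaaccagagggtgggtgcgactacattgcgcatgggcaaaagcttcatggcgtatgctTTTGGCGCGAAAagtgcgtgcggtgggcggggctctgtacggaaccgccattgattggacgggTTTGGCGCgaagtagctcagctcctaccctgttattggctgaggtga
Pola1: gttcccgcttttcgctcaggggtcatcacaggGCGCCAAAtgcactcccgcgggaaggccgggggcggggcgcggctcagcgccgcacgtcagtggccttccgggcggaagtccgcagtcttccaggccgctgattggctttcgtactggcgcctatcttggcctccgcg
Fen1: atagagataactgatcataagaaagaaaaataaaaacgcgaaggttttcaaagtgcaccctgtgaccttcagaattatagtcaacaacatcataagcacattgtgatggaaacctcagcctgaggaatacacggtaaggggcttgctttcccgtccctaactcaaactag
Tk1: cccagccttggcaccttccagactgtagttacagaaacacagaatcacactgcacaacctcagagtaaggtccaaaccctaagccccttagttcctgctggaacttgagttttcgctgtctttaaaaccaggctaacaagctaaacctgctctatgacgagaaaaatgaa

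Members with and without a word are described side by side. The 16 members with a word had a median log2 fold change of -0.45 after SAHA and -0.53 in Smarcb1-RE, and the 25 without one had -0.38 and -0.66. Over all tested genes, 34.3% were called lower and 32.6% higher after SAHA, and 38.6% lower and 39.2% higher in Smarcb1-RE (adjusted p under 0.05). Of the 16, 14 fell after SAHA and none rose, while in Smarcb1-RE 14 fell and 2 rose. Of the 25, 21 fell and 1 rose after SAHA, and 22 fell and 2 rose in Smarcb1-RE. These are descriptions without a test.

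Replication genes were lower in both treated groups. After SAHA, 44 of 50 members were lower than in control (adjusted p under 0.05), where 34.3% of all tested genes were called lower, and only Rpa3 was higher, where 32.6% of all genes were. In Smarcb1-RE cells, 42 members were lower against a background of 38.6%, and 5 were higher (Orc3, Orc5, Pole, Rpa2 and E2f2) against 39.2%. The median log2 fold change of the members was -0.48 after SAHA and -0.63 in Smarcb1-RE, beside medians of 0.003 and 0.014 over all tested genes. Because most genes of the table pass the first threshold, a change of at least 1.5-fold was also asked for. With it, 15 members were lower after SAHA (9.61% of all genes) and none higher (17.4%), the rise of Rpa3 being 0.42 on the log2 scale, and 26 were lower in Smarcb1-RE (18.0%) with 1 higher (25.6%), which was E2f2.

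The fall was smaller than 1.5-fold for most members after SAHA, whereas 26 of 50 fell by at least that in Smarcb1-RE (18.0% of all tested genes did). Summed over the 50 genes, the level was 8870, 8931 and 8583 CPM in the control libraries, 6881, 6611 and 6717 CPM after SAHA and 5431, 5562 and 5476 CPM in Smarcb1-RE. The 3 groups did not overlap. All 3 treated libraries lay below all 3 controls for 44 members after SAHA and for 42 members in Smarcb1-RE. How many of all tested genes were separated in this way was not counted, while 34.3% and 38.6% of them were called lower. Without control replicate 1, 44 members were lower and 2 higher after SAHA, and 42 were lower and 5 higher in Smarcb1-RE. The member that joined after SAHA was Rpa2. In Smarcb1-RE, Gins1 joined (0.22, adjusted p = 0.000762) and Pole left (0.067, adjusted p = 0.142), so the 5 were not the same genes. Without control replicate 2 or without Smarcb1-RE replicate 2, the number of members higher in Smarcb1-RE was 3 instead of 5, since Pole and Rpa2 no longer passed.

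**Figure D1:**
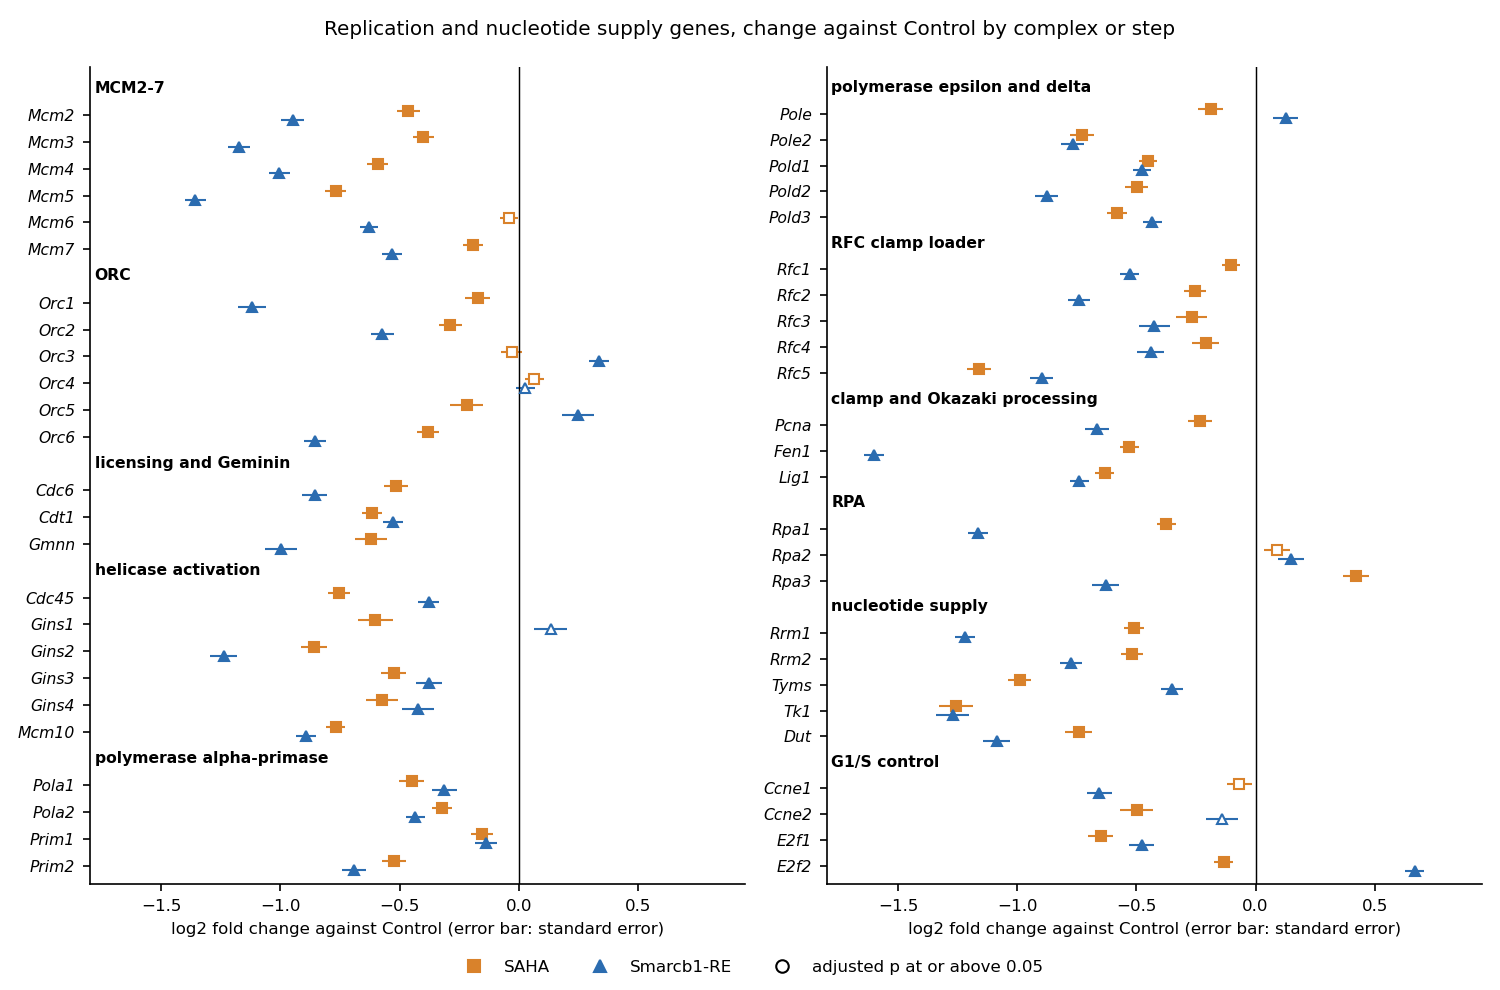
Log2 fold change against control (x axis) of each of the 50 members, grouped by complex or step. Squares stand for SAHA, triangles for Smarcb1-RE, bars for the standard error, and open symbols for an adjusted p of 0.05 or more. Most symbols lie left of 0, with medians of -0.48 and -0.63, and E2f2, Orc3, Orc5, Rpa2 and Pole in Smarcb1-RE and Rpa3 after SAHA are the called members to the right.

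The genes of the MCM helicase, the ring that unwinds DNA at the fork, fell as a set in Smarcb1-RE cells. All 6 subunits were lower, beside 38.6% of all tested genes, with a median log2 fold change of -0.98. Of these, 5 fell by at least 1.5-fold, beside 18.0% of all genes. After SAHA, 5 subunits were lower, beside 34.3% of all genes, and the median was -0.43. Mcm5 (chr8:75109569-75128439, GRCm38) had 514, 546 and 510 CPM in control, 323, 298 and 301 CPM after SAHA and 201, 204 and 208 CPM in Smarcb1-RE. Every treated library lay below every control, and every Smarcb1-RE library below every SAHA library. Mcm5 thus fell by 41.3% after SAHA (log2 fold change -0.77 ± 0.04 SE, adjusted p = 1.74e-08) and fell by 61.0% in Smarcb1-RE (-1.36 ± 0.04, adjusted p = 5.58e-11). Mcm3 had 483, 509 and 491 CPM in control, 400, 363 and 361 CPM after SAHA and 218, 219 and 221 CPM in Smarcb1-RE. It was the MCM subunit with the next largest fall in Smarcb1-RE, with a log2 fold change of -1.17 ± 0.05 (adjusted p = 1.99e-10) against -0.40 ± 0.04 after SAHA (adjusted p = 5.30e-06).

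Mcm6 had the smallest change of the complex after SAHA, and Mcm7 in Smarcb1-RE. The level of Mcm6 was 912 ± 29.0 CPM in control, 887 ± 15.9 CPM after SAHA and 590 ± 4.16 CPM in Smarcb1-RE (mean ± SD, n = 3 each). The SAHA libraries overlapped the controls (log2 fold change -0.04 ± 0.04, adjusted p = 0.354), whereas Mcm6 fell in Smarcb1-RE (-0.63 ± 0.04, adjusted p = 8.18e-09). Mcm2, Mcm4 and Mcm7 had values of -0.46, -0.59 and -0.19 after SAHA and of -0.95, -1.005 and -0.53 in Smarcb1-RE. On a length-scaled scale (TPM, counts divided by exonic length and scaled to a common total), on which genes can be compared, Mcm6 and Pcna had the highest levels of the 50 members in control cells, with 512 ± 33.9 and 499 ± 17.1 TPM by the length of all exons. These neighbors did not differ beyond their spread, and their order depended on the length used, since by the longest transcript Pcna had 629.7 TPM and Mcm6 437.6 TPM.

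The subunits of ORC, the complex that marks origins, were called in both directions in Smarcb1-RE cells, where Orc1, Orc2 and Orc6 fell, Orc3 and Orc5 rose, and Orc4 did not pass the test. Over all tested genes, 38.6% were lower and 39.2% higher, so 3 and 2 of 6 subunits are not read as particular to the complex. Orc1, the large subunit that carries ATPase activity, had 60.3, 58.5 and 59.0 CPM in control and 27.1, 28.1 and 26.8 CPM in Smarcb1-RE libraries (log2 fold change -1.12 ± 0.06, adjusted p = 1.96e-09). In SAHA libraries it had 56.9, 48.7 and 52.2 CPM, all below the lowest control (-0.17 ± 0.05, adjusted p = 0.0125). Without SAHA replicate 2 the SAHA change of Orc1 did not pass (-0.12, adjusted p = 0.0649). Orc2 had log2 fold changes of -0.29 and -0.57, and Orc6 of -0.38 and -0.85, after SAHA and in Smarcb1-RE.

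Orc3 (chr4:34570796-34614944) had 68.5, 69.6 and 65.5 CPM in control, 67.4, 66.0 and 66.0 CPM after SAHA and 86.7, 88.3 and 82.1 CPM in Smarcb1-RE. All Smarcb1-RE libraries lay above all others, while SAHA and control overlapped. The log2 fold change was 0.34 ± 0.04 in Smarcb1-RE (adjusted p = 1.03e-05) and -0.03 ± 0.04 after SAHA (adjusted p = 0.567). Orc5, the member with the lowest length-scaled level in control cells (8.88 ± 0.56 TPM), had 21.3, 22.1 and 19.4 CPM in control, 18.1, 17.7 and 18.2 CPM after SAHA and 22.9, 25.8 and 25.9 CPM in Smarcb1-RE. The groups did not overlap, with SAHA lowest and Smarcb1-RE highest. Orc5 fell after SAHA (-0.22 ± 0.07, adjusted p = 0.0136) and rose in Smarcb1-RE (0.25 ± 0.07, adjusted p = 0.00448). Without control replicate 2 its SAHA change did not pass (-0.18, adjusted p = 0.0530). Orc4 had 59.5 ± 0.0872, 62.2 ± 1.59 and 60.6 ± 1.61 CPM in control, SAHA and Smarcb1-RE libraries (mean ± SD, n = 3) and was the single member that passed the test in neither comparison.

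Of the members, 5 lie on chromosome 4 (Orc1, Orc3, Rpa2, Ccne2 and E2f2). The 838 tested genes of chromosome 4 had a median log2 fold change of 0.36 in Smarcb1-RE, against -0.014 for the 12312 tested genes of the other autosomes, and of -0.037 after SAHA. The 5 members there had a median of 0.15 in Smarcb1-RE, with 3 higher and 1 lower, and the other 45 had a median of -0.66, with 2 higher and 41 lower. Of the 838 genes of chromosome 4, 57.4% were called higher and 20.6% lower in Smarcb1-RE, beside 39.2% and 38.6% over all tested genes. The part of chromosome 4 in the higher values of Orc3, Rpa2 and E2f2 was not tested.

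All licensing factors fell in both treated groups, beside 34.3% of all tested genes after SAHA and 38.6% in Smarcb1-RE. Cdc6, the ATPase that completes ORC, had log2 fold changes of -0.51 after SAHA and -0.86 in Smarcb1-RE. Cdt1, which delivers the MCM ring, had 101 ± 0.33 CPM in control, 66.0 ± 1.68 CPM after SAHA and 70.2 ± 2.71 CPM in Smarcb1-RE. Its inhibitor Gmnn had 72.1 ± 7.73, 46.9 ± 1.08 and 36.1 ± 1.01 CPM (mean ± SD, n = 3 each). Their fall was of like size after SAHA (-0.62 for both), whereas in Smarcb1-RE Gmnn fell by 49.9% and Cdt1 fell by 30.6%.

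The ratio of Cdt1 to Gmnn within a library does not depend on the library scaling. On the log2 scale it was 0.32, 0.54 and 0.63 in control, 0.46, 0.49 and 0.53 after SAHA and 0.87, 0.95 and 1.06 in Smarcb1-RE libraries. Smarcb1-RE libraries all lay above the others. The difference from control was 0.46 in Smarcb1-RE (exact permutation test over libraries, two-sided, p = 0.1, and 3 against 3 libraries can give none smaller) and -0.003 after SAHA (exact permutation p = 1). Without control replicate 1, these differences were 0.38 and -0.089.

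The helicase activators had a lower median after SAHA than in Smarcb1-RE. After SAHA all 6 fell, beside 34.3% of all tested genes, with a median log2 fold change of -0.68. In Smarcb1-RE 5 fell, beside 38.6% of all genes, with a median of -0.40. Gins2, a subunit of the GINS complex, had 53.1, 48.4 and 52.1 CPM in control, 27.1, 29.1 and 28.5 CPM after SAHA and 21.1, 23.0 and 21.04 CPM in Smarcb1-RE. The 3 groups did not overlap, and Gins2 was among the 6 members with the largest falls in both comparisons (-0.86 ± 0.06, adjusted p = 4.03e-08, and -1.24 ± 0.06, adjusted p = 7.44e-10). Gins2 overlaps Gse1, and several other members overlap an expressed gene on the opposite strand (Orc6 with Vps35, Rfc4 with Eif4a2, Fen1 with Tmem258, Tk1 with Afmid). The library kit keeps strand, but whether counting used it is not given in the sources used here.

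Of the other GINS subunits, Gins3 and Gins4 fell in both comparisons like Gins2, and Gins1 after SAHA. Gins1 had 40.0 ± 4.77 CPM in control, 26.4 ± 0.79 CPM after SAHA and 43.9 ± 0.83 CPM in Smarcb1-RE (mean ± SD, n = 3). It fell after SAHA (-0.60 ± 0.07, adjusted p = 1.13e-05) and did not pass in Smarcb1-RE (0.13 ± 0.07, adjusted p = 0.0983), although it did without control replicate 1 (0.22, adjusted p = 0.000762). Gins3 and Gins4 had values of -0.53 and -0.57 after SAHA and of -0.38 and -0.42 in Smarcb1-RE. Cdc45, which holds GINS to the MCM ring, fell by 40.7% after SAHA and fell by 23.1% in Smarcb1-RE.

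Mcm10, a scaffold of the active helicase, had 141, 139 and 137 CPM in control, 82.4, 81.3 and 81.5 CPM after SAHA and 74.0, 78.6 and 72.2 CPM in Smarcb1-RE. All treated libraries were far below the controls, and Mcm10 was among the 6 largest falls after SAHA (-0.77 ± 0.04, adjusted p = 9.70e-09). In Smarcb1-RE its log2 fold change was -0.89 ± 0.04 (adjusted p = 7.44e-10).

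The genes of all 4 subunits of polymerase alpha and primase, which start each new strand, fell. These were lower in both comparisons, Prim1 in Smarcb1-RE not under every scaling, with medians of -0.39 after SAHA and -0.37 in Smarcb1-RE. Of all tested genes, 34.3% and 38.6% were called lower. Prim1, the catalytic primase subunit, changed least (-0.15 and -0.14, adjusted p = 0.00924 and 0.0143), and its Smarcb1-RE change was 0.021 (adjusted p = 0.675) when libraries were scaled by their totals only. Prim2 changed most (-0.52 and -0.69). Pola1, the catalytic polymerase subunit whose promoter word is shown above, had log2 fold changes of -0.45 and -0.31, and Pola2 of -0.32 and -0.43.

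Of the listed genes of polymerases epsilon and delta, Pole2, Pold1, Pold2 and Pold3 fell in both comparisons. Only the catalytic epsilon subunit Pole was called in opposite directions. Pold4, a subunit of polymerase delta outside the list, rose in both and is given further below. Pole had 154, 166 and 179 CPM in control, 145, 142 and 151 CPM after SAHA and 179, 186 and 180 CPM in Smarcb1-RE. The lowest Smarcb1-RE library lay just above the highest control. Pole fell after SAHA (-0.19 ± 0.05, adjusted p = 0.00640) and rose in Smarcb1-RE (0.13 ± 0.05, adjusted p = 0.0388). The rise had the adjusted p closest to the threshold among the members called against control. It did not pass when any of the libraries other than control replicate 3 was left out, with an adjusted p of 0.0591 to 0.142 and log2 fold changes of 0.067 to 0.13.

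Its partner Pole2 had 41.3 ± 1.34 CPM in control, 24.9 ± 1.09 CPM after SAHA and 24.2 ± 0.34 CPM in Smarcb1-RE, and fell in both (-0.73 and -0.77). Pole2 shares its locus and strand with the overlapping model Gm49384, and with the counts of both added the values were -0.56 and -0.74. Pold1, the catalytic delta subunit, had -0.45 and -0.48, Pold2 -0.50 and -0.88, and Pold3 -0.58 and -0.43.

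The genes of all 5 subunits of the clamp loader RFC fell in both comparisons, beside 34.3% of all tested genes after SAHA and 38.6% in Smarcb1-RE. Rfc5 had the largest fall in each comparison. Rfc5 had 141, 141 and 134 CPM in control, 66.8, 59.0 and 60.6 CPM after SAHA and 74.5, 74.2 and 74.8 CPM in Smarcb1-RE. The groups did not overlap, and SAHA libraries were the lowest. The log2 fold change of Rfc5 was -1.16 ± 0.05 after SAHA (adjusted p = 2.34e-09) and -0.90 ± 0.05 in Smarcb1-RE (adjusted p = 2.97e-09). Rfc1, Rfc2, Rfc3 and Rfc4 ranged from -0.27 to -0.10 after SAHA and from -0.74 to -0.43 in Smarcb1-RE. Without control replicate 1, the SAHA change of Rfc3 was -0.17 instead of -0.27. The smallest of these, Rfc1 after SAHA (-0.10 ± 0.04, adjusted p = 0.0262), did not pass without control replicate 2 or 3 or SAHA replicate 1 or 2 (adjusted p of 0.0533 to 0.0986).

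Among the clamp and Okazaki fragment enzymes, Fen1 had the largest fall of all members in Smarcb1-RE. Fen1, the flap endonuclease (chr19:10199132-10204169), had 194, 190 and 179 CPM in control, 130, 130 and 129 CPM after SAHA and 59.6, 62.8 and 62.9 CPM in Smarcb1-RE. The 3 groups were widely separated. Fen1 fell by 30.7% after SAHA (-0.53 ± 0.04, adjusted p = 2.04e-07) and fell by 67.0% in Smarcb1-RE (-1.60 ± 0.04, adjusted p = 1.16e-11). Lig1, the ligase that seals the fragments, had log2 fold changes of -0.63 and -0.74. Pcna, the clamp itself, had 459 ± 34.7, 390 ± 3.61 and 289 ± 2.36 CPM (mean ± SD, n = 3), or -0.23 and -0.67. The processed pseudogene Pcna-ps2 was listed with 117 ± 14.9 CPM in control, so reads may have been split between both, and with its counts added the values of Pcna were -0.26 and -0.68.

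RPA coats single-stranded DNA as a trimer, and its 3 genes were each called differently. Rpa1, the large subunit, had 303, 314 and 304 CPM in control, 240, 231 and 241 CPM after SAHA and 137, 143 and 132 CPM in Smarcb1-RE, a fall in both (-0.37 ± 0.04, adjusted p = 3.69e-06, and -1.16 ± 0.04, adjusted p = 9.25e-11). Rpa2 had 251, 229 and 214 CPM in control, 242, 253 and 242 CPM after SAHA and 250, 264 and 254 CPM in Smarcb1-RE, and all 3 groups overlapped. Rpa3, the small subunit (chr6:8255936-8259173), had 60.3, 54.3 and 55.1 CPM in control, 70.6, 77.9 and 78.5 CPM after SAHA and 36.9, 35.8 and 37.0 CPM in Smarcb1-RE.

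The groups did not overlap for Rpa3. It rose by 33.8% after SAHA (0.42 ± 0.05, adjusted p = 1.71e-05) and fell by 35.4% in Smarcb1-RE (-0.63 ± 0.06, adjusted p = 3.89e-07). Rpa3 was thus the one member called higher after SAHA and lower in Smarcb1-RE. The change of Rpa2 passed in Smarcb1-RE (0.15 ± 0.05, adjusted p = 0.0230) and not after SAHA (0.089 ± 0.05, adjusted p = 0.162). Both calls turned on single libraries. Without control replicate 2, control replicate 3 or Smarcb1-RE replicate 2, Rpa2 did not pass in Smarcb1-RE (0.13, 0.082 and 0.12, adjusted p = 0.0772, 0.145 and 0.0949), and without control replicate 1 it passed after SAHA (0.15, adjusted p = 0.00447).

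**Figure D2:**
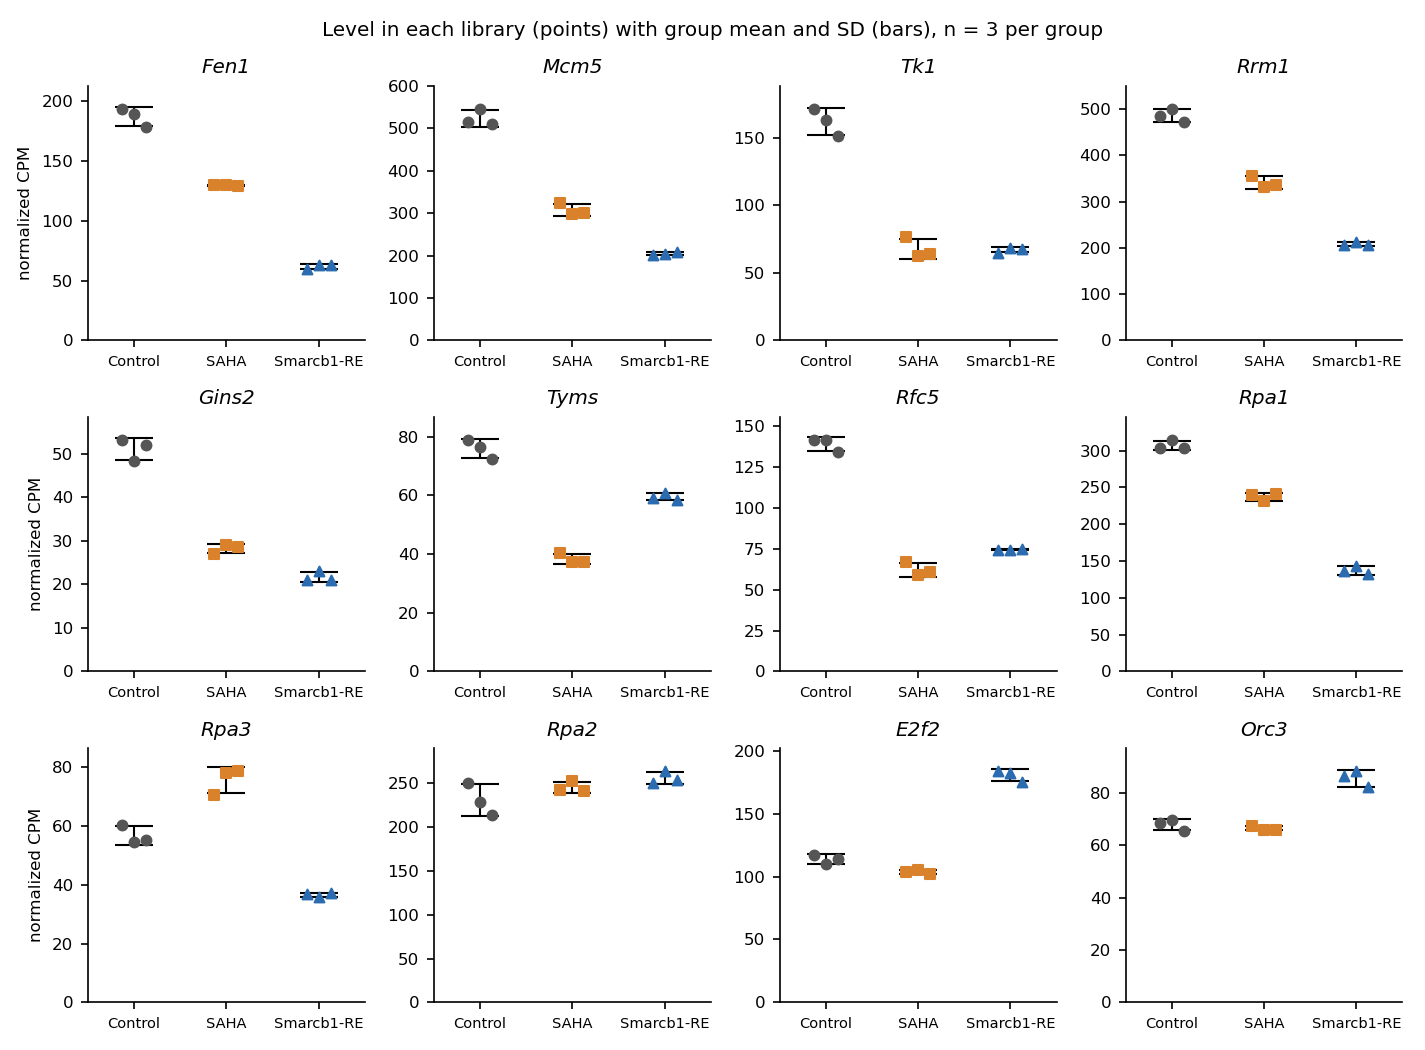
Normalized CPM (y axis, from 0) of 12 members in each of the 9 libraries, with 1 panel per gene. Points are libraries and bars the group mean ± SD (n = 3). Fen1, Mcm5, Rrm1 and Rpa1 step down from control to SAHA to Smarcb1-RE, Tk1 has about the same level in both treated groups, Tyms and Rfc5 are lowest after SAHA, Rpa3 is highest after SAHA and lowest in Smarcb1-RE, Rpa2 overlaps in all groups, and E2f2 and Orc3 are highest in Smarcb1-RE.

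The enzymes of deoxynucleotide supply had the lowest median of the 11 complexes or steps in both comparisons. All 5 were lower in both comparisons, with medians of -0.74 after SAHA (34.3% of all tested genes were lower) and -1.09 in Smarcb1-RE (38.6%). Their summed level was 1090 ± 34.99 CPM in control, 686 ± 35.3 CPM after SAHA and 529.9 ± 6.91 CPM in Smarcb1-RE (mean ± SD, n = 3). Tk1, the cytosolic thymidine kinase of the salvage pathway (chr11:117815526-117826092), had 171, 163 and 151 CPM in control, 76.3, 62.6 and 64.3 CPM after SAHA and 64.9, 68.7 and 67.6 CPM in Smarcb1-RE. The treated groups overlapped each other and lay far below the controls. Tk1 fell by 58.2% after SAHA (-1.26 ± 0.07, adjusted p = 1.40e-08), the largest fall of a member in that comparison, and fell by 58.6% in Smarcb1-RE (-1.27 ± 0.07, adjusted p = 3.82e-09).

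Tyms, the thymidylate synthase, had 78.9, 76.5 and 72.6 CPM in control, 40.2, 37.4 and 37.2 CPM after SAHA and 59.3, 60.9 and 58.5 CPM in Smarcb1-RE. Here the SAHA libraries were the lowest and the groups did not overlap (-0.99 ± 0.05, adjusted p = 5.94e-09, and -0.35 ± 0.05, adjusted p = 1.47e-05). Rrm1, the large subunit of ribonucleotide reductase, had 484, 499.7 and 472 CPM in control, 356, 330.5 and 336 CPM after SAHA and 205, 212 and 207 CPM in Smarcb1-RE. The order was the reverse of that of Tyms, with Smarcb1-RE lowest (-0.51 ± 0.04, adjusted p = 3.02e-07, and -1.22 ± 0.04, adjusted p = 7.21e-11). Dut, which removes dUTP, had log2 fold changes of -0.74 and -1.09.

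Rrm2, the small subunit of ribonucleotide reductase, had 195 ± 4.43, 136 ± 8.72 and 114 ± 1.82 CPM (mean ± SD, n = 3) and fell less than Rrm1 in Smarcb1-RE. The log2 ratio of Rrm2 to Rrm1 was -1.34, -1.32 and -1.27 in control, -1.29, -1.37 and -1.31 after SAHA and -0.87, -0.87 and -0.86 in Smarcb1-RE libraries. Only the Smarcb1-RE libraries stood apart. The difference from control was 0.45 in Smarcb1-RE (two-sided exact permutation p = 0.1, the smallest possible) and -0.012 after SAHA (exact permutation p = 0.8).

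The regulators of the G1/S transition showed no common direction in Smarcb1-RE cells. E2f2, a transcriptional activator (chr4:136172394-136196057), had 117, 110 and 114 CPM in control, 104, 105 and 102 CPM after SAHA and 184, 182 and 175 CPM in Smarcb1-RE. The Smarcb1-RE libraries were far above the others, and the SAHA libraries lay below the controls. E2f2 rose by 58.8% in Smarcb1-RE (0.67 ± 0.04, adjusted p = 7.48e-09) and fell by 8.81% after SAHA (-0.13 ± 0.04, adjusted p = 0.0106). E2f1, another activator of the family, had 55.5 ± 2.16, 35.4 ± 0.28 and 39.9 ± 2.58 CPM (mean ± SD, n = 3) and fell in both (-0.65 ± 0.05, adjusted p = 3.23e-07, and -0.48 ± 0.05, adjusted p = 2.44e-06).

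The E-type cyclins, which activate Cdk2, passed the test in different comparisons. Ccne1 had 49.9 ± 1.54 CPM in control, 47.6 ± 2.30 CPM after SAHA and 31.7 ± 1.53 CPM in Smarcb1-RE, with log2 fold changes of -0.068 ± 0.05 after SAHA (adjusted p = 0.260) and -0.66 ± 0.05 in Smarcb1-RE (adjusted p = 1.40e-07). The direct difference of Smarcb1-RE from SAHA was -0.59 for Ccne1 (adjusted p = 4.78e-07). Ccne2 had 69.4 ± 8.05, 49.1 ± 1.34 and 62.9 ± 1.13 CPM (mean ± SD, n = 3 each), and fell after SAHA (-0.50 ± 0.07, adjusted p = 3.46e-05). In Smarcb1-RE it did not pass (-0.14 ± 0.07, adjusted p = 0.0746, and 0.019 with library totals only), although it did without control replicate 3 (-0.23, adjusted p = 0.00208).

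The log2 ratio of Ccne2 to Ccne1 was 0.59, 0.48 and 0.34 in control, 0.17, -0.036 and 0.004 after SAHA and 0.95, 0.96 and 1.07 in Smarcb1-RE libraries. The 3 groups did not overlap. The difference from control was -0.43 after SAHA and 0.52 in Smarcb1-RE, each with a two-sided exact permutation p of 0.1, which is the smallest possible. Taken directly, Smarcb1-RE exceeded SAHA by 0.95 (exact permutation p = 0.1). Without control replicate 1 the differences from control were -0.36 and 0.58.

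**Figure D3:**
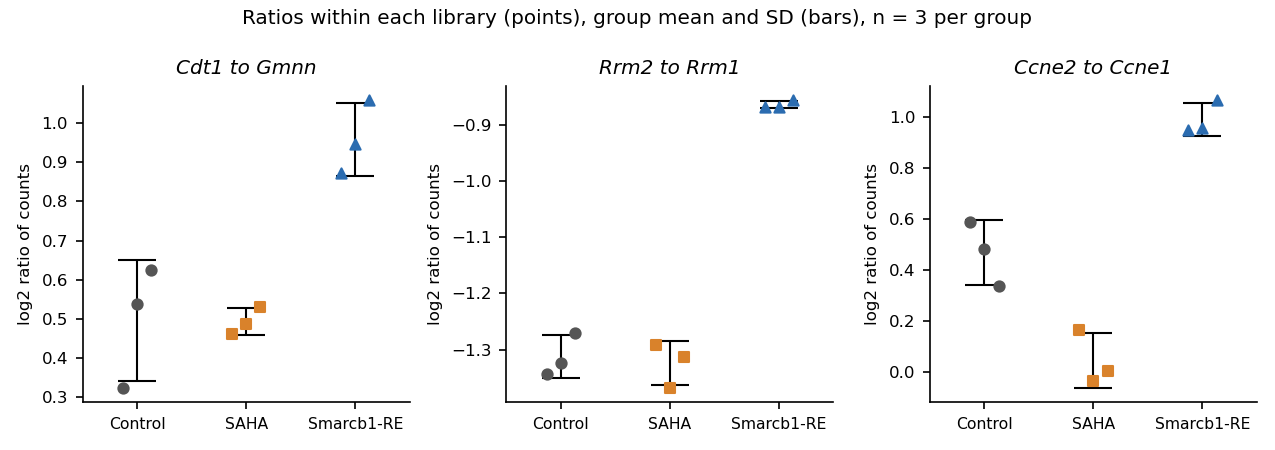
Log2 ratio of counts within each library (y axis) for Cdt1 to Gmnn, Rrm2 to Rrm1 and Ccne2 to Ccne1. Points are libraries and bars the group mean ± SD (n = 3). The 3 Smarcb1-RE libraries lie above the 6 others in every panel, and the SAHA libraries lie apart from the controls for Ccne2 to Ccne1 alone, between -0.036 and 0.17.

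The treatments were also compared with each other, which leaves the shared controls out of the difference. Of the 50 members, 29 were lower in Smarcb1-RE than after SAHA (36.8% of all tested genes were) and 13 were higher (37.7%), with a median of -0.16 beside 0.017 over all tested genes. With the 1.5-fold threshold, 9 were lower (17.9%) and 3 higher (21.4%). The 9 were Fen1, Rpa3, Orc1, Rpa1, Mcm3, Rrm1, Mcm6, Mcm5 and Ccne1, from -1.07 to -0.59, and the 3 were E2f2 (0.80 ± 0.04, adjusted p = 1.76e-09), Gins1 (0.73 ± 0.07, adjusted p = 1.13e-06) and Tyms (0.64 ± 0.05, adjusted p = 9.60e-08). These counts depend on the scaling: with library totals only, 20 members were higher in Smarcb1-RE than after SAHA and the median was -0.003, since Smarcb1-RE libraries had scaling factors of 1.07 to 1.08 against 0.960 to 0.967 in SAHA libraries. E2f2 lies on chromosome 4, whose 838 tested genes had a median of 0.38 here, with 59.3% called higher and 20.5% lower. The other autosomes had a median of -0.003. Of the 5 members on chromosome 4, 3 were higher and 1 lower, and the part of the chromosome was not tested.

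The counts by complex stand beside 36.8% of all tested genes lower and 37.7% higher in this comparison. All 6 MCM subunits were lower in Smarcb1-RE than after SAHA, with a median of -0.54, as were Pcna (-0.43), Fen1 (-1.07) and Lig1 (-0.11, but 0.051 with library totals only). Of RFC, 4 subunits were lower, with Rfc3 at 0.001 under library totals only, and Rfc5 was higher (0.26 ± 0.05, adjusted p = 0.000365). Cdc45 (0.38 ± 0.04, adjusted p = 6.94e-06) and Gins1 were higher and Gins2 (-0.38 ± 0.06, adjusted p = 7.08e-05) was lower. The RNA of these partners in the active helicase thus differed in opposite directions. Tk1 did not differ detectably (-0.015 ± 0.07, adjusted p = 0.863), and neither did Pold1, Pole2, Prim1, Orc4, Rpa2, Cdt1 or Gins4. With library totals only, the members that newly passed as higher in Smarcb1-RE included Pold1, Orc4 and Pole2. Their values were then 0.135, 0.121 and 0.119 (adjusted p = 0.00817, 0.0157 and 0.048). A p that misses the threshold does not show that the levels were the same.

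**Figure D4:**
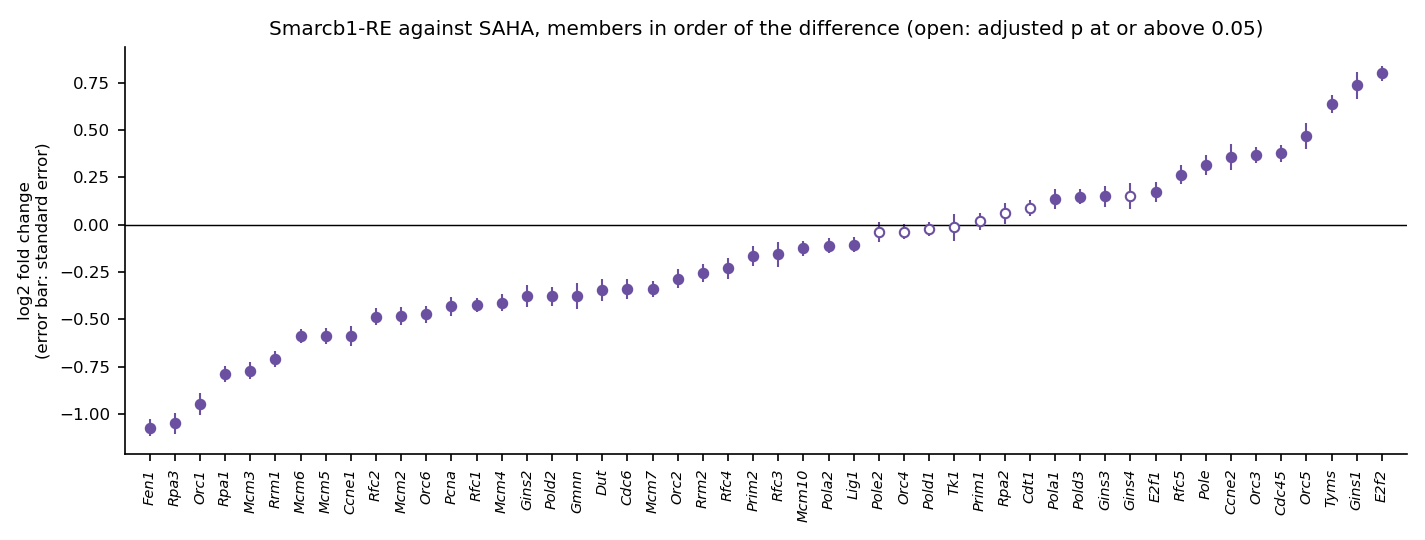
Log2 fold change of Smarcb1-RE against SAHA (y axis) of the 50 members, ordered by the difference. Bars are the standard error, and open circles have an adjusted p of 0.05 or more. The values run from -1.07 (Fen1) to 0.80 (E2f2), with 29 filled circles below 0 and 13 above.

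Other genes around replication were read from lists by function. Among all tested genes, 34.3% were called lower and 32.6% higher after SAHA, and 38.6% and 39.2% in Smarcb1-RE. Of 26 further replisome and origin-firing factors, 21 were lower and 4 higher after SAHA (median -0.36) and 20 lower and 1 higher in Smarcb1-RE (median -0.34). After SAHA the largest falls were those of Pole4, an accessory subunit of polymerase epsilon (-0.97), and of Dna2, a nuclease of Okazaki fragment processing (-0.96), and the largest rises those of the RNase H2 subunits Rnaseh2a (0.79) and Rnaseh2c (0.36). In Smarcb1-RE the largest falls were Rnaseh2c (-1.06) and Pole3 (-0.78), and Pold4, the small subunit of polymerase delta, rose (1.04, from 15.3 to 31.6 CPM). Pold4 was also higher after SAHA (0.32, adjusted p = 0.00607).

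Of 32 further genes of nucleotide supply, 25 were lower and 5 higher after SAHA (median -0.29), beside 34.3% and 32.6% of all tested genes. In Smarcb1-RE 22 were lower and 8 higher (median -0.69), beside 38.6% and 39.2%. Cad, which starts pyrimidine synthesis, had 412 CPM in control, 216 CPM after SAHA and 174 CPM in Smarcb1-RE. Mthfd2, a mitochondrial enzyme of folate metabolism, had the largest fall after SAHA (-1.19), and Mthfd1 (-1.75) and Umps (-1.61), the enzyme that makes UMP, the largest in Smarcb1-RE. The 2 largest rises after SAHA were Samhd1, which degrades deoxynucleotides (0.99, from 219 to 435 CPM), and Impdh1 (0.91). In Smarcb1-RE they were Ctps2, a CTP synthase (1.12), and Rrm2b, the p53-inducible small subunit of ribonucleotide reductase (0.46, adjusted p = 3.11e-06).

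Of 14 further regulators of the G1/S transition, 11 were lower and 1 higher after SAHA (median -0.47), beside 34.3% and 32.6% of all tested genes. In Smarcb1-RE 10 were lower and 2 higher (median -0.53), beside 38.6% and 39.2%. The rise after SAHA was that of Tfdp2, a dimer partner of E2F factors (0.56), which rose in Smarcb1-RE too (1.09, from 34.0 to 72.4 CPM), together with Cdk2 (0.24). The largest falls were E2f7 (-0.91) and E2f6 (-0.86) after SAHA and Cks1b (-1.29) and Cdc25a (-1.11) in Smarcb1-RE. The 25 genes of mitosis, which act after replication, were all lower after SAHA (34.3% of all tested genes were), with a median of -0.46. In Smarcb1-RE 23 of them were lower (38.6% of all tested genes were), with a median of -0.77. The largest falls were Cdc20 (-0.85) and Ccnb2 (-0.80) after SAHA and Ube2c (-1.82) and Plk1 (-1.76) in Smarcb1-RE.

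**Figure D5:**
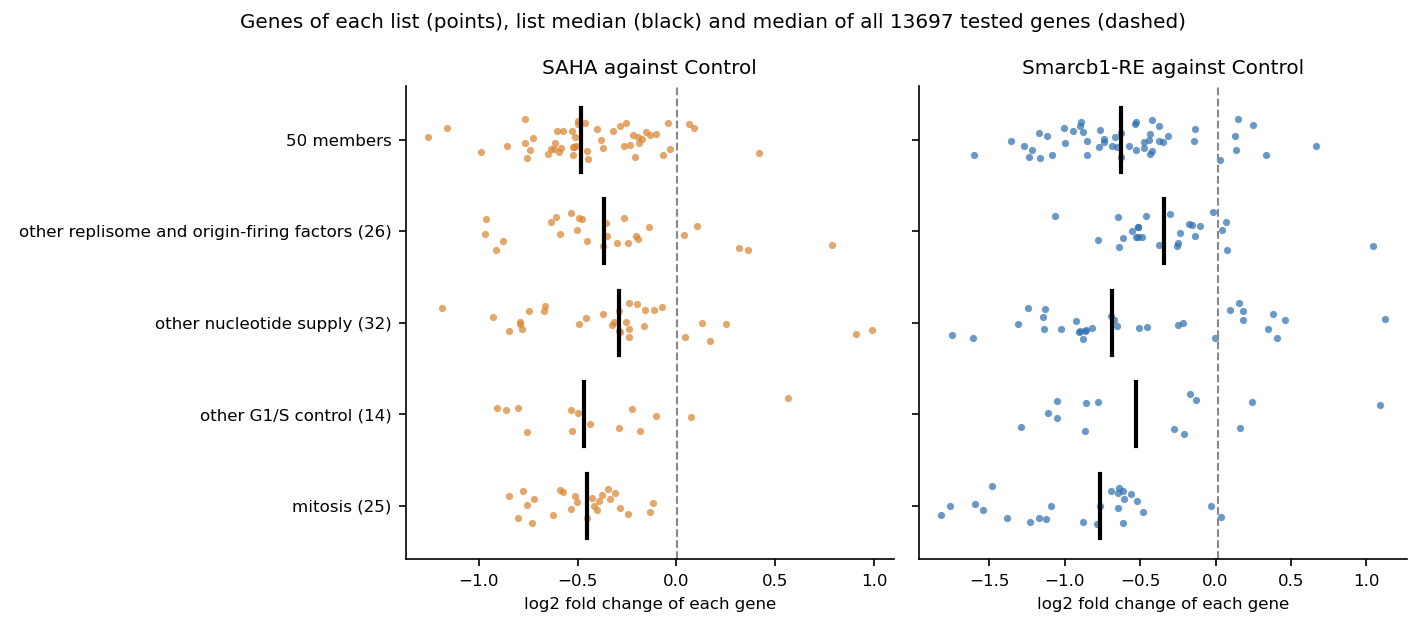
Log2 fold change against control (x axis) of each gene in the 50 members and in 4 lists of other replication, nucleotide, G1/S and mitosis genes, for SAHA (left) and Smarcb1-RE (right). Points are genes, black bars list medians and the dashed line the median of all tested genes. All medians lie below the dashed line, from -0.48 to -0.29 after SAHA and from -0.77 to -0.34 in Smarcb1-RE.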

How the data were processed

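The authors sequenced RNA of 9 T15 libraries and deposited estimated counts for Ensembl genes in one table, neither normalized nor pooled. Of the values above 0, 52.4% were not whole (tolerance 1e-06). The submitters' processing notes name FastQC 0.11.8, MultiQC 1.7, Salmon 0.14.1, DESeq2 1.22.2 and GRCm38, without roles. Names and positions came from GENCODE M21 (GRCm38), which held 99.5% of the identifiers with 99.9% of the counts. Counts were rounded and fitted with the quasi-likelihood test of edgeR 4.0.16 (R 4.3.3), with TMM factors, filterByExpr (minimum count 10), all 3 groups in 1 model and Benjamini-Hochberg adjustment over 13697 genes. The standard error is the size of the log2 fold change over the root of F. Reads shared by near-identical copies were divided by the quantification, so values of such genes are uncertain.

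CPM values were scaled by the TMM factors. TPM values used the exonic length in GENCODE. A floor of 3 counts is 0.120 to 0.144 CPM and covers counting error only. The biological coefficient of variation was 5.24%. The study calls its samples biological replicates, but nothing states separate cultures, so p-values measure the spread between these libraries. The members and lists were chosen with earlier results of these data known. All members may be named. Values in every library are given for the 6 largest called rises and falls per treatment, for members called against most of their step and for members called in opposite directions, and for Orc1 and Rpa1, chosen after their values were seen. Other pathway genes are named by the 2 largest called rises and falls. Simulated counts gave every gene the same coefficient of variation. For SAHA, 93 of 12761 genes were changed by 0.585 log2 units and 95 by 1. Of these, 81.7% and 94.7% were recovered, and 84.9% and 91.5% in the Smarcb1-RE simulation, with 6.21% and 4.07% false calls. In the data most genes were called and control replicate 1 stood apart, so these rates do not measure the real comparisons. The replicate numbers come from the titles and did not pair the libraries (mean correlation -0.003, range -0.072 to 0.037). Alternatives were DESeq2 1.42.0, median-ratio factors, library totals only, no filter, separate fits, at least 10 counts in every library, a replicate block, an adjusted p under 0.01, leaving out each library and, added after seeing the data, adding the counts of copies.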

Additional observations from a re-analysis of the deposited data

How the results depend on the processing

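Against control, 1661 of 1704 member values under the alternatives kept their direction and side of the threshold, 31 no longer passed, 9 newly passed and 3 changed sign. A replicate block left the medians at -0.479, -0.629 and -0.162 for SAHA against control, Smarcb1-RE against control and Smarcb1-RE against SAHA, with 1, 5 and 14 members higher and 44, 42 and 29 lower, and changed no call against control. The libraries share only a number, so no pairing was assumed.

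Scaling by library totals only moved the median of all genes in Smarcb1-RE against control from 0.014 to 0.173, and that of the members from -0.629 to -0.471, so the members stayed 0.643 below all genes. It raised the number of members higher in Smarcb1-RE than SAHA from 13 to 20 and moved that median from -0.162 to -0.003. Under it, Prim1 (0.021) and Ccne2 (0.019) against control changed sign, as did, against SAHA, Orc4 (0.121), Mcm10 (0.033), Pola2 (0.046), Pole2 (0.119), Pold1 (0.135), Rfc3 (0.001), Lig1 (0.051), Tk1 (0.144) and the medians of polymerase alpha-primase (0.111) and polymerase epsilon and delta (0.135). With at least 10 counts in every library, 3 members were higher after SAHA, the medians in Smarcb1-RE were -0.574 against control and -0.140 against SAHA, and Orc3 after SAHA (0.004) and Tk1 against SAHA (0.007) changed sign. Without a filter, 3 members were higher in Smarcb1-RE and the median was -0.657. At an adjusted p under 0.01, 3 were higher in Smarcb1-RE.

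Leaving out each library gave 1 to 2 members higher after SAHA, 3 to 5 higher in Smarcb1-RE, and medians of -0.657 to -0.605 in Smarcb1-RE against control and of -0.196 to -0.160 against SAHA. It gave differences of -0.089 to 0.062 for the Cdt1 to Gmnn ratio and of -0.028 to 0.010 for the Rrm2 to Rrm1 ratio after SAHA. Between the treatments, E2f1, Gins3, Lig1, Mcm10, Pola1, Pola2 and Rfc3 lost their call when some library was left out, and Gins4 gained one. Prim1 and Tk1 in Smarcb1-RE against SAHA changed sign, with ranges of -0.012 to 0.036 and of -0.083 to 0.067. With counts of copies added, Pole2 was lower in Smarcb1-RE than SAHA (-0.178, adjusted p = 0.0103). Against control, single libraries decided the calls of Orc1, Orc5, Rfc1 and Rpa2 after SAHA and of Ccne2, Gins1, Pole and Rpa2 in Smarcb1-RE.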
